A study of Mus musculus with 32 samples.

Results

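The complement genes C1qa, C1qb, C1qc, C3, C3ar1, C5ar1, Cfb and Cfp were followed in mouse tumour-associated macrophages measured on Affymetrix arrays. The 8 genes were chosen by symbol. Of these, 7 had a probe set that the platform annotation gives a single symbol, on both chips, among 17097 genes named on the HT_MG-430_PM chip and 22180 on the Mouse Gene 2.0 ST chip. C3, the central component that all activation routes cleave, was not analysed here. The other 7 passed the filter on dim genes in each of the 3 experiments, in which 12577, 11915 and 16524 genes were tested.

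Complement is a cascade of blood and tissue proteins that marks targets for uptake and releases small inflammatory fragments. C1q, assembled from the chains that C1qa, C1qb and C1qc encode, recognises bound antibody and dying cells and starts the classical pathway. It is made largely by macrophages, and its 3 genes are widely used as markers of tissue macrophages. Factor B (Cfb) supplies the protease of the alternative pathway, and properdin (Cfp) stabilises the enzyme complex that factor B forms. C3ar1 and C5ar1 encode the receptors on myeloid cells for the fragments C3a and C5a.

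The arrays analysed number 32 in 12 groups, with 100 ng of RNA per array. In the tumour model experiment, CD11b+ cells were enriched with magnetic beads from neuroblastomas arising spontaneously in Th-MYCN transgenic mice (NB, n = 3) and from EG7 thymomas, tumours of a transplanted mouse lymphoma line, in WT mice (EG7, n = 3). The Myd88 experiment used the same enrichment from EG7 thymomas in Myd88-/- hosts (Myd88KO, n = 5) and in WT hosts (n = 5). In the sorted experiment, population A (CD11b+, Ly6C+, MHC class II-) and population C (CD11b+, Ly6C-, MHC class II+) were taken by flow cytometry from EG7 thymomas in 4 kinds of host, with n = 2 for each population and host. The hosts carried both TNFR1-/- and Myd88 flox/flox with Tie2-Cre (doubleKO), Myd88 flox/flox with Tie2-Cre alone (Myd88cKO), TNFR1-/- alone (TNFR1KO), or neither (WT). Myd88 is the adaptor of most Toll-like receptors and of the IL-1 receptor, and TNFR1, encoded by Tnfrsf1a, is the main receptor for TNF. Tie2-Cre acts in endothelial and blood-forming cells, so the deletion is not limited to macrophages, and the transplanted EG7 cells do not carry the host's genotype. Ages are not given. Nothing in the labels ties the arrays of 1 group to different animals, so the p-values reflect only how far these samples spread, which may be technical.

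Myd88 signal followed the labels in its range. The 8 sorted arrays of Myd88cKO and doubleKO hosts had 7.49 to 8.76 log2 units. The 8 arrays of TNFR1KO and WT hosts had 9.22 to 10.05. In C, Myd88 loss was called for Myd88 (-1.755 ± 0.187, adjusted p = 0.0036). There doubleKO minus WT was not called (-1.135 ± 0.265, adjusted p = 0.129), with doubleKO arrays at 8.76 and 7.97. Tnfrsf1a signal was 7.51 to 8.20 in the 8 arrays of TNFR1KO and doubleKO hosts, against 7.81 to 8.55 in those of Myd88cKO and WT hosts. These ranges overlapped, and TNFR1 loss was not called for Tnfrsf1a in A (-0.34 ± 0.17, adjusted p = 0.39) or in C (-0.54 ± 0.17, adjusted p = 0.233). The genotype check is therefore weak for TNFR1, and the place of the Tnfrsf1a probes relative to the deleted part was not examined. The 2 A arrays of WT hosts correlated least within their group, at r = 0.948, against 0.9765 to 0.9906 in the other 7 sorted groups. Throughout, a difference is on the log2 scale with its standard error (SE), and a gene is called at an adjusted p under 0.05 from limma, adjusted by Benjamini-Hochberg across every gene tested in that comparison.

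The C1q genes lie next to each other on chromosome 4, with 0 other genes between them in the gene table of assembly GRCm38.p6, and the results turn mostly on them. The 250 bases upstream of the annotated start, from RefSeq on GRCm38.p6 and read 5′ to 3′ on the minus strand, are shown for C1qb (chr4:136886201-136886450) and C1qc (chr4:136892915-136893164) because these neighbours moved together. Capitals mark matches to GAGGAA, the core of the box bound by PU.1, a transcription factor of myeloid cells, or to its reverse complement TTCCTC.
C1qb: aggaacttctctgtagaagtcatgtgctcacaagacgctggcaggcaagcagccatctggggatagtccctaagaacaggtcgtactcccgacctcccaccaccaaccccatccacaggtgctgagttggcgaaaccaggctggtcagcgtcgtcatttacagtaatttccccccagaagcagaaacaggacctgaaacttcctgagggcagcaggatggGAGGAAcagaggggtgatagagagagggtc
C1qc: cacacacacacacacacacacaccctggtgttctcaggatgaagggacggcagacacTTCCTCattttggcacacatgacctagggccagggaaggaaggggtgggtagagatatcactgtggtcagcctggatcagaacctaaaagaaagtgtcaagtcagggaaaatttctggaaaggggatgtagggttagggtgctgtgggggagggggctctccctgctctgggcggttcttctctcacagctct
C1qb had 1 match, on the coding strand, 24 bases from the start, and C1qc had 1 match, on the opposite strand, 187 bases from the start. The windows of C3ar1, C5ar1 and Cfp had 0 matches. C1qa, the third C1q neighbour, and Cfb had no upstream window in the set used. Of all 32851 upstream windows of this length, 23.3% held the motif on either strand, so a match in 2 of 5 windows is a description only.

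Population A had less signal than population C for each of the 7 members. Averaged over the 4 host genotypes, 7 of 7 were called lower in A, against 21.3% of all genes tested called lower and 32.3% called in either direction. The largest differences were those of the C1q genes. The median difference over the 7 was -1.18, against 0.02 over all genes tested. In bulk samples of this kind, fewer cells of a type and less RNA per cell cannot be told apart.

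C1qa, which encodes the A chain, had 7.55 and 7.68 in doubleKO, 9.01 and 9.61 in Myd88cKO, 7.55 and 6.66 in TNFR1KO and 7.01 and 7.02 in WT hosts among A arrays, against 10.30 and 10.13, 10.71 and 10.45, 10.38 and 10.29, and 10.28 and 10.43 in the same order of hosts among C arrays. All 8 A arrays lay below all 8 C arrays, and those of Myd88cKO hosts came closest to C. The averaged difference was -2.61 ± 0.12 (adjusted p = 1.12e-08), a 6.11-fold lower signal in A.

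C1qb, the B chain, had 10.19 and 10.33 in doubleKO, 11.53 and 11.99 in Myd88cKO, 9.76 and 8.13 in TNFR1KO and 9.66 and 9.43 in WT hosts among A arrays, against 12.20 to 12.54 over the 8 C arrays. C1qc, the C chain, had 7.14 and 7.16, 8.41 and 9.07, 6.79 and 5.40, and 6.22 and 5.72 in that order of hosts among A arrays, against 9.38 to 9.91 over the 8 C arrays. Neither gene overlapped between the populations. The averaged differences were -2.21 ± 0.17 for C1qb (adjusted p = 1.03e-06) and -2.57 ± 0.17 for C1qc (adjusted p = 2.33e-07). The spread was unequal, since the A arrays covered 3.86 log2 units for C1qb and 3.67 for C1qc, against 0.34 and 0.53 over the C arrays. The 2 A arrays of TNFR1KO hosts alone differed by 1.63 for C1qb.

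The other members differed less between the populations. Cfp, the properdin gene, had 8.62 to 9.41 in doubleKO, 9.46 to 9.49 in Myd88cKO, 8.52 to 9.07 in TNFR1KO and 7.98 to 9.04 in WT hosts among A arrays, against 9.95 to 10.26 over the C arrays (-1.18 ± 0.15, adjusted p = 5e-05). The C3a receptor gene C3ar1 had 8.50 to 9.97 over the 8 A arrays, against 10.26 to 10.67 over the 8 C arrays (-1.07 ± 0.13, adjusted p = 3.36e-05). The C5a receptor gene C5ar1 had 6.31 to 7.25 in A, against 7.29 to 7.91 in C (-0.79 ± 0.10, adjusted p = 4.76e-05). None of these 3 overlapped between the populations. Groups that do not overlap, with A lower, were found for 4.86% of all genes tested.

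Cfb was the exception in its pattern. Its A arrays had 7.29 and 8.03 in doubleKO, 7.49 and 8.48 in Myd88cKO, 7.14 and 6.53 in TNFR1KO and 8.51 and 8.48 in WT hosts, against C arrays of 7.52 and 7.25, 8.70 and 8.30, 7.56 and 8.31, and 9.21 and 8.96 in that order of hosts. The populations overlapped, and the difference of -0.48 ± 0.17 was close to the threshold (adjusted p = 0.041). The call was lost with quantile normalization, with array weights and without any of 10 single arrays, with values of -0.61 to -0.36 when an array was left out. With H2-Ab1 or the mature macrophage list as a covariate, added after the data had been seen and described below, the difference changed sign (0.83, adjusted p = 0.287, and 0.37, adjusted p = 0.998).

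**Figure D1:**
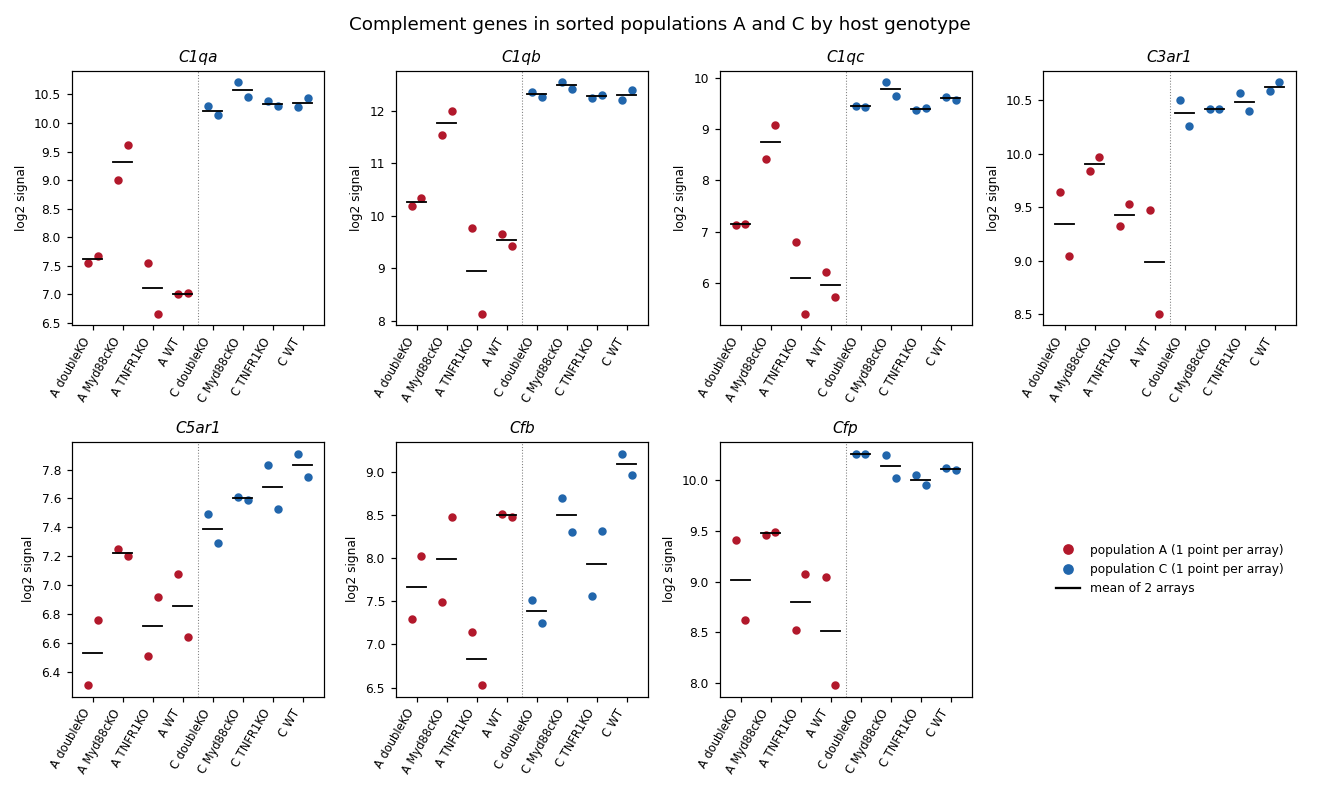
Log2 signal of the 7 complement genes (vertical axes, which do not start at 0) in the sorted arrays, with 1 point per array and a bar at the mean of the 2 arrays of a group. Population A is in red on the left and population C in blue on the right. For the C1q genes all A points lie below all C points and those of Myd88cKO hosts are the highest of A. Cfb overlaps between the populations, and its group means are highest in WT hosts.

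By host, the A minus C differences of the C1q genes ran as follows. In doubleKO hosts they were -2.60 for C1qa, -2.05 for C1qb and -2.29 for C1qc, and in Myd88cKO hosts they were -1.27, -0.72 and -1.04. In TNFR1KO hosts they were -3.23, -3.33 and -3.30, and in WT hosts -3.34, -2.76 and -3.63. Of the 7 members, 6 were called lower in A in doubleKO hosts, 1 in Myd88cKO hosts, 7 in TNFR1KO hosts and 6 in WT hosts, against 3.72%, 0.938%, 10.1% and 9.92% of all genes called lower. Leaving out 1 array of the groups compared gave 3 to 5 in doubleKO, 4 to 5 in TNFR1KO and 4 to 6 in WT hosts, with C3ar1, C5ar1 or Cfp, and in TNFR1KO hosts also Cfb, losing the call. The 1 member called in Myd88cKO hosts was C1qa (adjusted p = 0.0226), and it was lost without either C array or without A array 1 of that host. The gap between populations was thus smallest in Myd88cKO hosts for C1qa, C1qb and C1qc, and whether that gap differs is the test of the Myd88 effect between A and C given below.

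Other complement genes were called at about the rate of the chip, in both directions. Of 27 tested among 43 listed, 6 were called higher in A and 3 lower, beside the 32.3% of all genes called. Lower in A were Itgax, a subunit of complement receptor 4 that also marks dendritic cells, at 6.38 to 9.61 in A against 8.91 to 10.38 in C (-1.93 ± 0.13, adjusted p = 3.23e-07), and Cd93, a surface protein once described as a C1q receptor, at 6.03 to 7.87 in A against 8.34 to 8.87 in C (-1.45 ± 0.17, adjusted p = 3.09e-05). Higher in A were the inhibitor of the C1 proteases Serping1, at 5.15 to 7.85 in A against 4.91 to 5.78 in C (1.38 ± 0.15, adjusted p = 1.53e-05), and Cd55, which speeds decay of complement enzymes on the cell surface, at 5.15 to 6.57 in A against 4.51 to 4.92 in C (1.0 ± 0.15, adjusted p = 2e-04). C4b, a component of the classical and lectin pathways, was lower in A (-0.65 ± 0.11, adjusted p = 0.000648), though its signal is uncertain because C4a is a near-identical copy. The ficolin gene Fcnb was higher in A by 0.31 ± 0.06 (adjusted p = 0.00198), though its signal was dim in A arrays of Myd88cKO and WT hosts, as given below.

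Gene levels of the sort gate and of cell type markers stood as follows beside these differences. The A minus C difference was 3.21 ± 0.18 for Ly6c2 and -1.98 ± 0.21 for H2-Ab1, an MHC class II gene, and the sort itself used both markers. The mean of the 14 measured mature macrophage markers was 7.18 to 8.90 in A, against 8.90 to 9.38 in C, and 11 of 14 were called lower in A and 1 higher. All 6 tested eosinophil and mast cell markers were called higher in A, where the mean of the 9 on the chip was 5.30 to 6.72, against 4.63 to 4.86 in C. Of the neutrophil markers 7 of 11 tested were called higher in A, where the list mean was 6.03 to 6.58, against 5.26 to 5.5 in C. Of the T lymphocyte and EG7 markers 5 of 9 were called higher, at a list mean of 5.86 to 7.21 in A against 6.01 to 6.51 in C, and of the fibroblast markers 5 of 8, at 5.79 to 6.76 in A against 5.61 to 5.84 in C. The monocyte list mean was 8.14 to 8.98 in A against 7.69 to 8.38 in C. The dendritic cell list mean was 5.97 to 6.17 in A against 6.10 to 6.68 in C. The part of the sort and of these cells in the complement differences was not tested, apart from the covariate fits given below.

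Within population A, the C1q genes were higher where Myd88 had been deleted. Comparing the 4 A arrays of Myd88cKO and doubleKO hosts with the 4 of TNFR1KO and WT hosts, 3 of 7 members were called higher, against 4.19% of all genes called higher and 4.67% called in either direction. The differences were 1.40 ± 0.17 for C1qa (2.64-fold, adjusted p = 0.00109), 1.77 ± 0.25 for C1qb (3.4-fold, adjusted p = 0.00202) and 1.91 ± 0.24 for C1qc (3.76-fold, adjusted p = 0.00103). The 4 arrays with Myd88 deleted had 10.19 to 11.99 for C1qb, against 8.13 to 9.76 in the other 4. For C1qc these were 7.14 to 9.07 against 5.40 to 6.79, and for C1qa 7.55 to 9.61 against 6.66 to 7.55. These calls remained when any single A array was left out, and were lost when only the 8 A arrays were fitted.

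The same 3 genes were called when TNFR1 was intact on both sides. In A, Myd88cKO minus WT was 2.30 ± 0.25 for C1qa (adjusted p = 0.000822), 2.22 ± 0.35 for C1qb (adjusted p = 0.00776) and 2.77 ± 0.33 for C1qc (adjusted p = 0.00164), against 2.47% of all genes called higher and 3.18% in either direction. Without Myd88cKO array 2, C1qa stayed called while C1qb (1.99, adjusted p = 0.0945) and C1qc (2.44, adjusted p = 0.0521) did not, and genes called over the whole chip numbered 8 in place of 525. With array weights C1qb was not called either (adjusted p = 0.127). Without WT array 1, C3ar1 (1.41, adjusted p = 0.00603) and Cfp (1.5, adjusted p = 0.0119) were called too. With all arrays these 2 had 0.92 ± 0.26 (adjusted p = 0.0652) and 0.97 ± 0.30 (adjusted p = 0.0894).

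Against WT hosts, no C1q gene passed in the double knockout. In A, doubleKO minus WT was 0.60 ± 0.25 for C1qa, 0.72 ± 0.35 for C1qb and 1.18 ± 0.33 for C1qc (adjusted p = 0.151, 0.222 and 0.053), and 0 of 7 members were called by limma, against 5.75% of all genes. At an unadjusted p under 0.05 these were 3 of 7 members (C1qa, C1qc and Cfb) and 24.8% of all genes. In a comparison chosen after seeing the data, doubleKO minus Myd88cKO in A was -1.70 ± 0.25 for C1qa, called at an adjusted p of 0.0212 against 0.0605% of all genes called lower. C1qb (-1.50, adjusted p = 0.192) and C1qc (-1.59, adjusted p = 0.13) did not pass. The C1qa call was lost without Myd88cKO array 2, without either doubleKO array and when only the groups compared were fitted. Of the other comparisons of the double with a single knockout, 0 members were called in doubleKO minus TNFR1KO in A (1.33% of all genes called, 10.6% at an unadjusted p under 0.05), in doubleKO minus Myd88cKO in C (0.472% and 5.99%) or in doubleKO minus TNFR1KO in C (0.00605% and 3.46%). Members at an unadjusted p under 0.05 numbered 3 (C1qb, C1qc and Cfb), 1 (Cfb) and 0 in that order. The departure of the double knockout from the sum of the single effects in A was -1.79 ± 0.35 for C1qa (adjusted p = 0.0969), -0.90 ± 0.49 for C1qb and -1.72 ± 0.47 for C1qc, with 0 members called by limma, against 0.0726% of all genes. At an unadjusted p under 0.05 these were 4 of 7 members (C1qa, C1qc, C3ar1 and Cfb) and 10.4% of all genes.

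In population C the C1q genes differed little by host. Myd88 loss gave 0.05 ± 0.17 for C1qa, 0.11 ± 0.25 for C1qb and 0.11 ± 0.24 for C1qc, with 0 of 7 members called by limma, against 0.0182% of all genes. At an unadjusted p under 0.05 these were 1 member (Cfb) and 4.67% of all genes. Against WT hosts 0 members were called in C in doubleKO (0.309% of all genes called, 6.17% at an unadjusted p under 0.05), Myd88cKO (0.0121% and 3.85%) or TNFR1KO hosts (0.0726% and 4.73%). Members at an unadjusted p under 0.05 numbered 2 in doubleKO (C5ar1 and Cfb), 0 in Myd88cKO and 1 in TNFR1KO hosts (Cfb). The test of the difference itself did not separate the populations. Myd88 loss in A minus that in C was 1.35 ± 0.25 for C1qa, 1.66 ± 0.35 for C1qb and 1.80 ± 0.33 for C1qc, with adjusted p-values of 0.111, 0.196 and 0.111. No gene on the chip was called in this comparison by limma, while 9.27% of all genes, 1532 in number, had an unadjusted p under 0.05, as did 5 of the 7 members (the C1q genes, C3ar1 and Cfb). When TNFR1KO array 1 of A was left out, all 3 C1q genes were called (1.57 to 2.15).

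**Figure D2:**
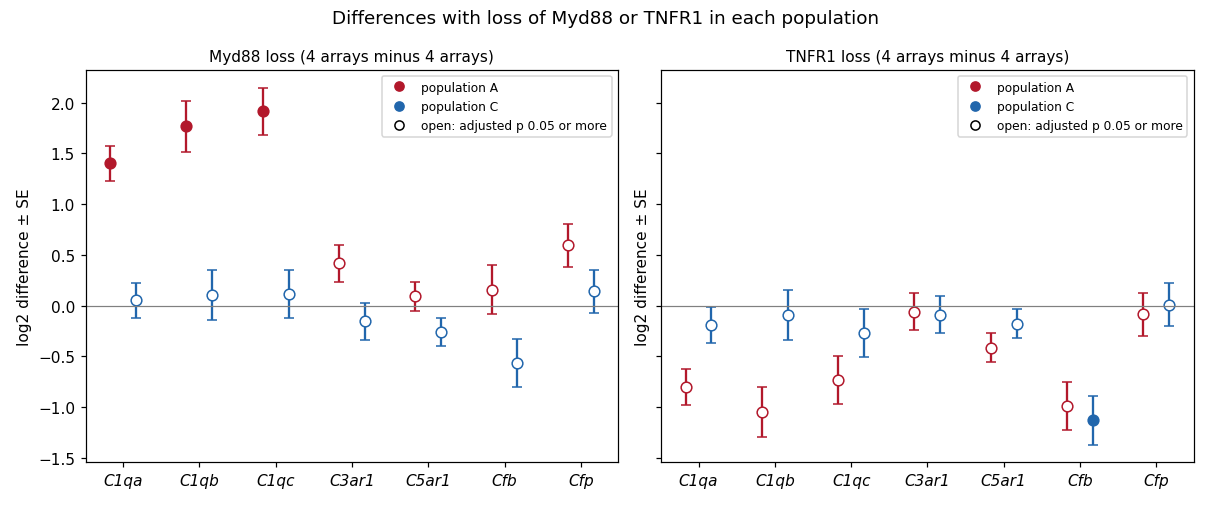
Log2 difference with SE for loss of Myd88 (left) and loss of TNFR1 (right), each 4 arrays minus 4 arrays, in population A (red) and population C (blue). Filled points are called. The C1q genes lie at 1.40 to 1.91 for Myd88 loss in A and at 0.05 to 0.11 in C, and Cfb is the only member filled for TNFR1 loss, in C.

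Among A arrays, the mature macrophage list mean and the C1q genes were both highest in Myd88cKO hosts. H2-Ab1 had a lower mean in doubleKO (10.31) than in WT hosts (10.65), while the C1q means were higher. The other MHC class II genes read had nearly equal means in these hosts. H2-Aa had 10.065 in doubleKO and 10.005 in WT, and H2-Eb1 had 9.81 and 9.795. The mean of the 14 mature macrophage markers was 7.98 and 7.96 in doubleKO, 8.48 and 8.90 in Myd88cKO, 7.62 and 7.18 in TNFR1KO and 7.97 and 7.58 in WT hosts, and with Myd88 loss 6 of 14 were called higher and 0 lower. H2-Ab1 had 9.74 and 10.88 in doubleKO, 11.06 and 11.98 in Myd88cKO, 9.21 and 10.71 in TNFR1KO and 10.64 and 10.66 in WT hosts. Its difference with Myd88 loss in A was 0.61 ± 0.30 (adjusted p = 0.254). That of H2-Aa was 0.82 ± 0.31 (adjusted p = 0.137) and that of H2-Eb1 was 0.87 ± 0.29 (adjusted p = 0.0992). Ly6c2 had 11.79 and 11.31 in Myd88cKO hosts, below the 12.01 to 12.93 of the other 6 A arrays, and its difference with Myd88 loss in A was -0.44 ± 0.25 (adjusted p = 0.333). The endothelial list mean was 5.97 and 6.26 in Myd88cKO hosts, above the 5.41 to 5.75 of the other 6 A arrays. Of the T lymphocyte and EG7 markers 4 of 9 were called higher with Myd88 loss in A, and of the fibroblast markers 2 of 8.

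When the level of H2-Ab1 on each array was added to the fit, after the data had been seen, the C1q genes were still called for Myd88 loss in A, at 1.13 for C1qa (adjusted p = 0.000878), 1.36 for C1qb (adjusted p = 0.00131) and 1.55 for C1qc (adjusted p = 0.000878). With the mean of the mature macrophage markers in its place, the differences were 0.62, 0.63 and 0.65 (adjusted p = 0.583, 0.668 and 0.598), and 0 members and 0 genes on the chip were called. Across A minus C, the H2-Ab1 covariate left C1qa (-1.72, adjusted p = 0.00614) and Cfp (-1.91, adjusted p = 0.0479) called, and the macrophage list left 0 of 7 members and 0 genes. The macrophage list moved with the genotype itself, so the fit cannot tell a genotype effect on C1q apart from a genotype effect on the macrophage content or maturity of A. The list also holds Ms4a7, among the genes most like the C1q mean over the sorted arrays (r = 0.978), so it is not independent of the C1q pattern. The MHC class II genes H2-Aa and H2-Eb1 were not fitted as covariates.

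**Figure D3:**
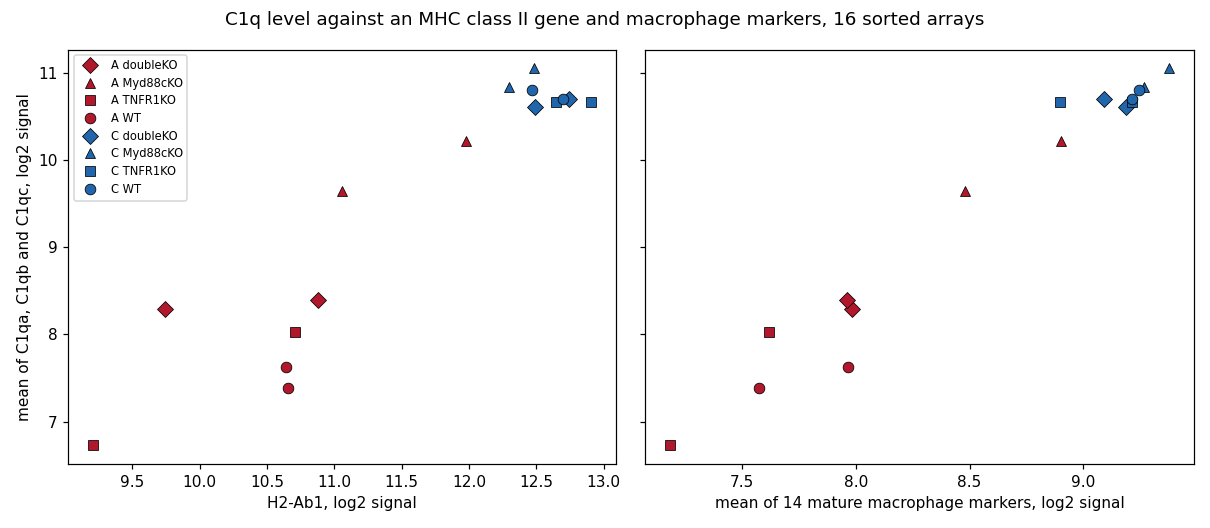
Mean log2 signal of C1qa, C1qb and C1qc (vertical axes) against H2-Ab1 (left) and against the mean of 14 mature macrophage markers (right), with 1 point per sorted array. Population A is in red and C in blue, and the shapes stand for host genotypes. The 2 A arrays of Myd88cKO hosts, at 9.65 and 10.22, lie between the other A arrays, at 6.73 to 8.39, and the C arrays, at 10.61 to 11.05.

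The C1q genes varied together. Over the 16 sorted arrays their pairwise Pearson r was 0.975 to 0.989, within the 8 A arrays 0.951 to 0.978, and within the 8 C arrays 0.717 to 0.838. C3ar1 and Cfp had r = 0.969 over the 16 arrays and 0.958 within A, against -0.241 within C. These are descriptions, and the arrays share their populations and hosts. The non-member genes whose pattern was most like the C1q mean over the 16 arrays were Fabp5 (r = 0.983), a fatty acid binding protein, Pf4 (0.981), a chemokine, Anxa4 (0.98), an annexin, Ms4a7 (0.978), a membrane protein of macrophages, and Lgmn (0.977), a lysosomal protease. Within C alone these were 0.193, 0.566, 0.666, 0.846 and -0.447. By Spearman correlation their ranks were 463, 69.5, 262, 36 and 794.5 among the tested non-member genes, with predicted genes and clone-based symbols left out.

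Other complement genes in A also differed by host. With Myd88cKO minus WT, Itgax was higher (2.58 ± 0.26, adjusted p = 0.000822), at 8.97 and 9.61 in Myd88cKO against 7.04 and 6.38 in WT hosts. Itgb2, the shared subunit of complement receptors 3 and 4, was higher by 1.04 ± 0.24 (adjusted p = 0.0379) and Cr1l, a mouse regulator of complement on cell surfaces, by 0.65 ± 0.16 (adjusted p = 0.0414). Fcnb was lower, at 4.83 and 4.99 in Myd88cKO against 5.5 and 5.52 in WT hosts (-0.60 ± 0.13, adjusted p = 0.0274). Over all 27 tested, 3 were called higher and 1 lower. Serping1 had 5.88 and 5.15 in TNFR1KO, against 7.39 and 6.70 in WT hosts (-1.53 ± 0.30, adjusted p = 0.0428). The fibroblast list mean was 5.88 and 5.79 in those TNFR1KO arrays against 6.67 and 6.26 in WT hosts, with 4 of 8 tested called lower. Serping1 was higher with Myd88 loss in A (0.93 ± 0.21, adjusted p = 0.0261). Hc, which encodes C5, was lower in doubleKO than in WT hosts (-0.62 ± 0.15, adjusted p = 0.0338).

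Over 4 arrays against 4, Cfb was the only member called with TNFR1 loss, and only in C. In A, where no member passed, the C1q genes were lower too, as given below. In C the 4 arrays of doubleKO and TNFR1KO hosts had 7.25 to 8.31, against 8.30 to 9.21 in the 4 of Myd88cKO and WT hosts, which overlapped at 1 array of each side. TNFR1 loss gave -1.13 ± 0.24 in C (2.19-fold lower, adjusted p = 0.0355), the only member of 7 called, against 0.617% of all genes called lower and 1.09% in either direction. The call was lost with each array centred on its median (adjusted p = 0.0529) and when any of 7 of the 8 C arrays was left out, with values of -1.32 to -0.95.

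In A, TNFR1 loss gave -0.99 ± 0.24 for Cfb (adjusted p = 0.0963), and 0 of 7 members were called by limma, against 0.182% of all genes. At an unadjusted p under 0.05 these were 5 of 7 members (C1qa, C1qb, C1qc, C5ar1 and Cfb) and 13.8% of all genes. TNFR1KO minus WT in A was called for Cfb alone, at -1.66 ± 0.34 (3.16-fold lower, adjusted p = 0.0454), against 0.339% of all genes called lower. That call was lost with no filter on dim genes, with median centring, with array weights, with the replicate block, when only the groups compared were fitted, without WT array 1 and without TNFR1KO array 2 (-1.36, adjusted p = 0.464). In C, doubleKO minus WT was -1.70 ± 0.34 (adjusted p = 0.0541) and TNFR1KO minus WT was -1.15 ± 0.34 (adjusted p = 0.557). The effect of TNFR1 loss in A minus that in C was 0.14 ± 0.34 (adjusted p = 0.971), with 0 members called by limma, against 0.103% of all genes. At an unadjusted p under 0.05 these were 2 members (C1qa and C1qb) and 6.5% of all genes. For the C1q genes TNFR1 loss in A gave values that did not pass, -0.80 ± 0.17 for C1qa, -1.05 ± 0.25 for C1qb and -0.73 ± 0.24 for C1qc (adjusted p = 0.0891, 0.0958 and 0.199).

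The genes whose pattern was most like that of Cfb over the 16 sorted arrays were Sod2 (r = 0.966), the mitochondrial superoxide dismutase, Ikbke (0.938), a kinase of inflammatory signalling, Rbpms (0.926), an RNA-binding protein, Slc16a10 (0.926), an amino acid transporter, and Ly6i (0.907), a Ly6 family surface protein. Their r within A was 0.954 to 0.983 and within C 0.863 to 0.959. With TNFR1 loss in C, Sod2 alone of these was called (-1.40 ± 0.23, adjusted p = 0.00723). Ikbke (-0.68 ± 0.20, adjusted p = 0.196) and Ly6i (-1.59 ± 0.42, adjusted p = 0.115) were not. Nor were Rbpms (-0.63 ± 0.17, adjusted p = 0.13) and Slc16a10 (-0.58 ± 0.21, adjusted p = 0.427).

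With Myd88 lacking in the whole host, the bead-enriched cells showed no called change in the 7 members, against 1.44% of all genes called and 12.5% with an unadjusted p under 0.05. Myd88 itself had 7.47 to 7.83 in Myd88KO against 8.11 to 8.57 in WT hosts (-0.75 ± 0.10, adjusted p = 0.00175). C1qa had 11.48, 11.34, 11.40, 11.54 and 11.40 in Myd88KO hosts, against 11.57, 11.40, 11.37, 11.39 and 11.30 in WT hosts. The groups overlapped almost wholly, and the difference was 0.03 ± 0.08. For C1qb and C1qc it was 0.01 ± 0.08 and 0.06 ± 0.08.

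Cfb, C5ar1 and Cfp had an unadjusted p under 0.05, 3 of the 7 members, each with a negative difference. Cfb had 7.62, 7.92, 7.99, 8.14 and 8.03 in Myd88KO hosts, against 8.82, 8.73, 8.40, 7.85 and 8.31 in WT hosts. All but array 4 of the WT hosts lay above every Myd88KO array. The difference was -0.48 ± 0.17 (adjusted p = 0.227), and without that array it was -0.63 and called (adjusted p = 0.0298).

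C5ar1 has 2 probe sets on this chip that disagreed in their call. The brighter, which stands for the gene, had 8.02 to 8.42 in Myd88KO hosts, against 8.36 to 8.66 in WT hosts (-0.32 ± 0.10, adjusted p = 0.178). The dimmer had 5.77, 5.81, 5.98, 5.27 and 5.46 in Myd88KO hosts, against 6.67, 6.29, 6.43, 6.35 and 6.14 in WT hosts, without overlap. In the fit over all probe sets its difference was -0.72 ± 0.14 (adjusted p = 0.0257), and the mean of both probe sets in the fit over genes gave -0.52 (adjusted p = 0.029). C3ar1 (0.15 ± 0.10) and Cfp (-0.17 ± 0.07) were not called, at adjusted p = 0.651 and 0.375.

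Beside these values, 5 of the 9 tested monocyte markers were called lower in Myd88KO hosts and 0 higher, with a median of -0.81. The mature macrophage list mean was 9.11 to 9.35 in Myd88KO and 9.13 to 9.26 in WT hosts, with 0 of 13 tested called. The actin probe sets of the 3′ and 5′ ends differed by 0.69 log2 units in Myd88KO and 0.60 in WT arrays (exact permutation test, two-sided p = 0.0397), and those of Gapdh by 0.37 and 0.32 (p = 0.413, exact permutation test). Their part in the C5ar1 and Cfb values was not tested. Of 23 other complement genes tested, Cd55 alone was called, at 3.25 to 3.92 in Myd88KO against 3.92 to 5.10 in WT hosts (-1.01 ± 0.20, adjusted p = 0.0273).

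Between the tumour models 0 of 7 members were called, against 14.7% of all genes called and 30.1% with an unadjusted p under 0.05. C1qa had 12.69, 12.61 and 12.48 in NB, against 12.42, 12.24 and 12.12 in EG7. C1qb had 13.03, 13.20 and 13.12 in NB against 13, 12.88 and 12.78 in EG7, and C1qc had 12.72, 12.72 and 12.59 against 12.47, 12.29 and 12.16. All 3 were higher in every NB array than in any EG7 array, by 0.33 ± 0.15, 0.23 ± 0.14 and 0.37 ± 0.15 (adjusted p = 0.199, 0.332 and 0.154).

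The receptors lay the other way. C3ar1 had 10.61, 10.29 and 10.17 in NB, against 10.90, 10.87 and 10.82 in EG7 (-0.51 ± 0.16, adjusted p = 0.0908), and C5ar1 had 9.22, 9.41 and 8.48 in NB, against 9.67, 9.62 and 9.47 in EG7 (-0.55 ± 0.26, adjusted p = 0.209). Groups that do not overlap were found for 5 of the 7 members, against 36.1% of all genes tested. For C3ar1 this depended on the probe set. A dimmer one overlapped, at 10.20, 10.46 and 9.65 in NB against 10.63, 10.57 and 10.27 in EG7. In the limma fit over all probe sets it had -0.39 ± 0.24 (adjusted p = 0.348). Another dimmer one did not overlap (-0.49 ± 0.14, adjusted p = 0.0747). Cfb had 7.82, 9.91 and 7.78 in NB, with array 2 far above the others, against 8.44, 8.61 and 8.23 in EG7 (0.08 ± 0.57). NB array 2 also had the highest natural killer cell list mean, at 6.6 against 3.27 and 4.06 in the other NB arrays, and the highest monocyte list mean, at 10.78 against 10.07 and 8.97. Cfp had 11.46, 11.65 and 11.35 in NB against 11.61, 11.31 and 11.42 in EG7 (0.04 ± 0.16). Of the 7 members, C1qc and C3ar1 had an unadjusted p under 0.05 in limma.

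**Figure D4:**
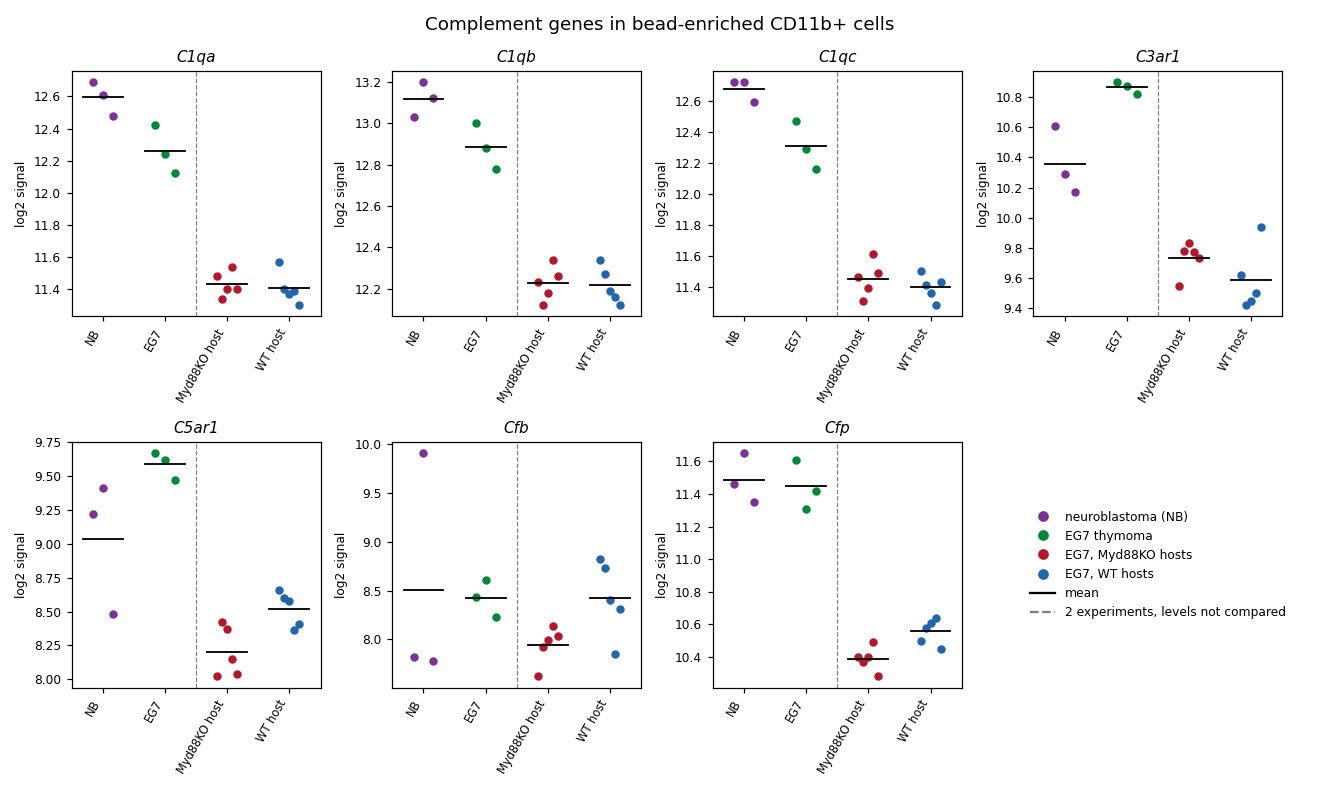
Log2 signal of the 7 complement genes (vertical axes, which do not start at 0) in bead-enriched CD11b+ cells, with 1 point per array and a bar at the group mean. NB and EG7 are on the left of each panel, and Myd88KO and WT hosts on the right, from a separate experiment whose levels are not compared with the first. The C1q points overlap between Myd88KO and WT hosts, and the NB array 2 stands apart for Cfb.

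Other complement genes did differ between the tumours, with 7 of 24 tested called higher in NB and 1 lower. Vsig4, a receptor for C3b on tissue macrophages, had 9.89, 8.24 and 10.03 in NB, against 3.95, 5.5 and 3.21 in EG7 (5.17 ± 0.70, adjusted p = 0.00518). Fcna, a ficolin made by macrophages in mice, had 12.29, 11.02 and 11.73 in NB against 7.64, 7.71 and 6.11 in EG7 (4.53 ± 0.51, adjusted p = 0.0029). Both were far apart between the models, without overlap. Vtn, which blocks the terminal pathway, Colec12, a scavenger collectin, C4b, and Clu, a second terminal pathway inhibitor, were higher by 3.21 ± 0.21, 2.89 ± 0.18, 2.60 ± 0.44 and 2.37 ± 0.45 (adjusted p = 0.000435, 0.000379, 0.0115 and 0.0181). Markers of macrophages and of other cells moved with the tumour. The mean of 14 mature macrophage markers was 10.44 to 10.63 in NB against 9.83 to 10.05 in EG7, without overlap and in the same direction as the C1q genes, with 2 called higher and 2 lower. That of 6 B lymphocyte markers was 4.42 to 6.42 against 4.27 to 4.49. The mean of 11 neuroblastoma and sympathetic neuron markers was 7.91 to 8.84 in NB against 3.71 to 3.77 in EG7, that of 9 endothelial markers 7.81 to 8.90 against 6.51 to 7.05, that of 9 fibroblast markers 7.88 to 9.0 against 6.81 to 7.35, and that of 9 T lymphocyte and EG7 markers 4.53 to 5.76 against 8.15 to 8.50. The part of those cells in these differences was not tested.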

How the data were processed

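Log2 signals were deposited for each probe set. The authors computed them by RMA using Affymetrix Expression Console 1.1, as the submitters' processing notes state. RMA corrects background, sets arrays to a common distribution and summarises probes, so a global change in RNA content is removed. The sources used here do not say which arrays shared a normalization. Array medians were 3.84 to 3.93 (tumour models), 2.95 to 3.03 (Myd88 hosts) and 5.31 to 5.5 (sorted cells), and no level was compared across experiments or between probe sets. The number of arrays limits the precision. Glioma samples are not analysed here.

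Of 45141 probe sets on the chip of the bead experiments (HT_MG-430_PM), 28898 had 1 symbol, 551 several and 15692 none. On the chip of the sorted cells (Mouse Gene 2.0 ST), these were 23521, 1814 and 16010 of 41345. Symbols were updated by Entrez identifier (28689 and 23328 matched), and the probe set of highest mean stood for a gene. A gene was tested if it lay above the 40th percentile in as many arrays as the smallest group holds. Tests were two-sided, by lmFit and eBayes (limma 3.58.1, R 4.3.3), adjusted by Benjamini-Hochberg within each comparison. The tumour and Myd88 experiments were fitted apart, and the 16 sorted arrays together as 8 groups, which leaves 8 residual degrees of freedom. On simulated data, changes of 1 log2 unit were recovered for 27% of changed genes in NB minus EG7 and 72% in A Myd88cKO minus WT. In the other comparisons simulated they were recovered for 92% to 100%. False calls made up 7.69% of calls in A Myd88cKO minus WT, 5.91% for Myd88 loss in A and 3.38% to 5.45% elsewhere. Each simulation changed 200 genes, fewer than the 1850 called in NB minus EG7, and its recovery is an average over genes. In NB minus EG7 the SE was 0.57 for Cfb and 0.14 to 0.26 for the other members. Recovery for the members themselves was not simulated, and a lack of called members does not show that they are unchanged.

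Members, lists and tests were chosen with earlier results of these data known. Named were the members, Myd88, Tnfrsf1a and, per comparison, up to 6 called other complement genes of smallest adjusted p. Likeness was the highest Pearson r over the sorted arrays among tested non-member genes, with predicted genes and clone-based symbols left out. Gate genes, covariate fits and the comparisons of doubleKO with the single knockouts were added after seeing the data.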

Additional observations from a re-analysis of the deposited data

How the results depend on the processing

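Of 36 called member differences under 587 alternatives, 499 kept direction and call, 86 lost the call and 2 changed sign, both for Cfb in A minus C, at 0.83 with H2-Ab1 and 0.37 with the mature macrophage list as a covariate. Those covariates, added after seeing the data, left 2 and 0 of 7 members called in A minus C, 6 and 0 in A Myd88cKO minus WT, and, for the macrophage list, 0 with Myd88 loss in A. Both covariates differ between A and C, so the covariate and the population cannot be told apart in A minus C. A further 29 uncalled differences passed in 44 alternatives. The number of members called moved by over 1.5 times as follows. With array weights, NB minus EG7 had 1, A minus C in Myd88cKO hosts 2, A TNFR1KO minus WT 0 and C doubleKO minus WT 1. With the mean of all probe sets, Myd88KO minus WT had 1. When only the groups compared were fitted, A minus C had 3 in Myd88cKO and 3 in doubleKO hosts, A TNFR1KO minus WT 0, C doubleKO minus WT 1, Myd88 loss in A 0, A doubleKO minus Myd88cKO 0 and C doubleKO minus Myd88cKO 1. A TNFR1KO minus WT had 0 with no filter, with median centring and with the replicate block. Median centring gave 1 in A doubleKO minus WT and 0 for TNFR1 loss in C. The filter at the 60th percentile gave 1 in A doubleKO minus WT and 1 in C doubleKO minus WT, which also had 1 with quantile normalization and 1 with an intensity trend. Smaller moves were C5ar1 in A minus C of WT hosts, lost with array weights (adjusted p = 0.0871) and with only the groups compared (0.0737), Cfb in A minus C of TNFR1KO hosts, lost with no filter (0.0559) and quantile normalization (0.074), Cfb in A minus C averaged, lost with array weights (0.0631) and quantile normalization (0.0959), and C1qb in A Myd88cKO minus WT, lost with array weights (0.127).

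With each array left out in turn, members called ranged from 6 to 7 in A minus C averaged, 3 to 5 in doubleKO, 0 to 1 in Myd88cKO, 4 to 5 in TNFR1KO and 4 to 6 in WT hosts. In A the ranges were 0 to 3 for doubleKO minus WT, 1 to 5 for Myd88cKO minus WT, 0 to 2 for TNFR1KO minus WT, 3 to 5 for Myd88 loss, 0 to 3 for TNFR1 loss, 0 to 3 for the departure from additivity, 0 to 1 for doubleKO minus Myd88cKO and 0 to 2 for doubleKO minus TNFR1KO. They were 0 to 1 for TNFR1 loss in C, 0 to 3 and 0 to 1 for the Myd88 and TNFR1 effects in A minus C, and 0 to 1 for Myd88KO minus WT. The causes were not tested. Where a group keeps 1 array, it is assumed to vary like the other groups.

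Genes called over the chip ranged from 625 to 2639 in NB minus EG7 (1850 as reported), 86 to 300 in Myd88KO minus WT (172), 0 to 6569 in A minus C averaged (5344), 0 to 1516 in A Myd88cKO minus WT (525), 0 to 2359 for Myd88 loss in A (772) and 72 to 466 for TNFR1 loss in C (180). The arrays share only replicate numbers, with same-numbered r of -0.049 to 0.22, -0.251 to 0.226 and -0.5 to 0.375 in the 3 experiments, and the replicate block ended the Cfb calls in A TNFR1KO minus WT (adjusted p = 0.0523) and in A minus C of TNFR1KO hosts (adjusted p = 0.0528) and no other member's call.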
